A study of Mus musculus with 6 samples.

Results

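Amacrine and horizontal cells are the inhibitory interneurons of the retina, and 10 genes that mark them were followed in RNA sequencing libraries prepared from retinal endothelial cells of mouse pups. The genes were picked by symbol: Gad1, Gad2, Slc32a1, Slc6a9, Tfap2a, Tfap2b, Calb1, Calb2, Onecut1 and Lhx1, which are 10 of the 24421 rows of the table. The mutant libraries, 3 in number, came from C57BL/6 pups at postnatal day 7 that carried Anxa3 fl/fl;Tie2-Cre, in which a recombinase active in endothelial and blood-lineage cells acts on floxed Annexin A3 alleles. The control libraries, also 3, came from pups of the same strain and age with Anxa3 fl/fl alone, so the floxed alleles are shared by both groups and Cre is present in mutants only. An effect of Cre and an effect of Anxa3 loss cannot be told apart in this design. The study was set up to look for genes that respond to Anxa3 loss and might bear on places where arteries and veins cross. The sources used here do not say how many pups went into a library or whether libraries came from separate litters. The p-values below set the difference between the groups against the spread among these libraries.

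Horizontal cells feed signals back onto photoreceptor terminals in the outer retina, while amacrine cells shape the input to ganglion cells in the inner retina. Most amacrine cells release either GABA, which is made from glutamate by the decarboxylases that Gad1 and Gad2 encode, or glycine, which glycinergic amacrine cells take up through the transporter encoded by Slc6a9. Slc32a1 encodes the carrier that loads both transmitters into synaptic vesicles. Both cell types arise from progenitors that pass through a common program, in which the AP-2 factors Tfap2a and Tfap2b are used by amacrine and horizontal cells, and Onecut1 and Lhx1 are needed in horizontal cells.

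The promoters of Gad1 and Gad2 are shown because these enzymes make the same transmitter and because their levels were lowest in the same library as those of both AP-2 factor genes. RefSeq on GRCm38.p6 gave promoter windows, from 250 bases before to 50 bases after a start site, for 8 of the 10 genes, in 11 windows, and none was at hand for Calb1 and Calb2. Both windows below lie on the plus strand, and capitals mark the AP-2 palindrome GCCNNNGGC, searched on both strands.
Gad1, chr2:70561879-70562178: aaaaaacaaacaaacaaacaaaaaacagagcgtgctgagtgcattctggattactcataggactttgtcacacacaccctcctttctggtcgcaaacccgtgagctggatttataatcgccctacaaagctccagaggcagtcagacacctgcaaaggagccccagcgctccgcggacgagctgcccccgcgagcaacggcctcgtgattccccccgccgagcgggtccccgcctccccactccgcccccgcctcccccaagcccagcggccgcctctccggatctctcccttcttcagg
Gad2, chr2:22622077-22622376: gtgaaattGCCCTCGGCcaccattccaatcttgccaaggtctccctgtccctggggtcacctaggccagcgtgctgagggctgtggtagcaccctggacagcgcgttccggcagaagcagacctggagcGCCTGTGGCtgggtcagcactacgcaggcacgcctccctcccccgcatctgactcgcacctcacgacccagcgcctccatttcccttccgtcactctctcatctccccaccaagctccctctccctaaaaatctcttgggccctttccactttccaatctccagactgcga
The Gad2 window held 2 matches, which began 242 and 121 bases before the start site, and the Gad1 window held 0. Slc32a1 was lowest in the same library too, and its window, not shown, also held 0. Among the 11 windows of the marker genes 1 held a match, against 16.6% of all 32851 promoter windows. Of the motifs tied to the horizontal cell factors, the Onecut motif ATCGAT was in 0 of the 11 windows, against 0.925% of all windows. Its variant ATTGAT was in 2, those of Slc6a9 and Tfap2b, against 7.54%. The LIM homeodomain motif TAATTA was in 1, that of Tfap2a, against 5.29%. These are letter matches in short windows and say nothing of whether a factor was bound.

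Levels are in FPKM, a count of fragments corrected for the length of the gene and the depth of the library. Reads recovered from the FPKM steps numbered 21376877 to 30885542 per library. Anxa3 itself measured 9.78, 12.5 and 15.1 FPKM in mutant replicates 1, 2 and 3, against 18.7, 17.7 and 43.4 FPKM in control replicates 1, 2 and 3. In the test of genotype given below, the log2 difference of this targeted gene was -0.93, mutant minus control. Anxa3 was not called there either, which limits what the absence of calls for other genes can show. The endothelial markers, 12 genes, averaged 5.27 to 5.67 in mutants and 5.18 to 6.34 in controls on the log2(FPKM + 1) scale, with control replicate 3 at the top. Rod photoreceptor markers, 10 genes, averaged 8.11 to 8.46 in mutants and 7.76 to 8.43 in controls, with control replicate 3 at the bottom. RNA of retinal neurons was thus present in every preparation beside that of endothelial cells, and in such mixed samples fewer cells of a type and less RNA per cell cannot be told apart.

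The amacrine and horizontal markers were present at low to moderate levels in all 6 libraries and 0 of them passed the test of genotype given below. Their summed level was 84.7, 99.2 and 95.3 FPKM in mutant replicates 1, 2 and 3, against 90.6, 97.7 and 91.0 FPKM in control replicates 1, 2 and 3. Means of the sum were 93.1 ± 7.48 FPKM in mutants and 93.1 ± 4.01 FPKM in controls (SD, n = 3 each). Of the 10 genes, 5 had a higher and 5 a lower mean log2 value in mutants, with a median log2 difference of -0.005, beside -0.007 over all genes tested. For 0 of the 10 did the mutant and control values separate without overlap, where 4.35% of all 13622 genes tested did.

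Slc6a9, the glycine transporter gene, was by far the most abundant of the 10. It measured 45.0, 48.5 and 42.3 FPKM in mutant replicates 1, 2 and 3, against 44.1, 48.6 and 41.2 FPKM in control replicates 1, 2 and 3. The groups spanned nearly the same range, and its coefficient of variation over the 6 libraries, 6.87%, was the smallest of the 10. Its share of the summed level of the 10 genes ran from 44.4% to 53.1% over the libraries. Next in mean level came Tfap2b, Gad1, Calb2, Slc32a1, Gad2 and Tfap2a, all between 3.81 and 12.5 FPKM in every library. Onecut1, Calb1 and Lhx1 lay lowest. Slc6a9 was above Tfap2b in every library by 3.93-fold in the mean, and Tfap2a was above Onecut1 by 3.81-fold, and these were the steps at which the ranges over 6 libraries did not overlap. All other neighbours in the order overlapped in range.

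**Figure D1:**
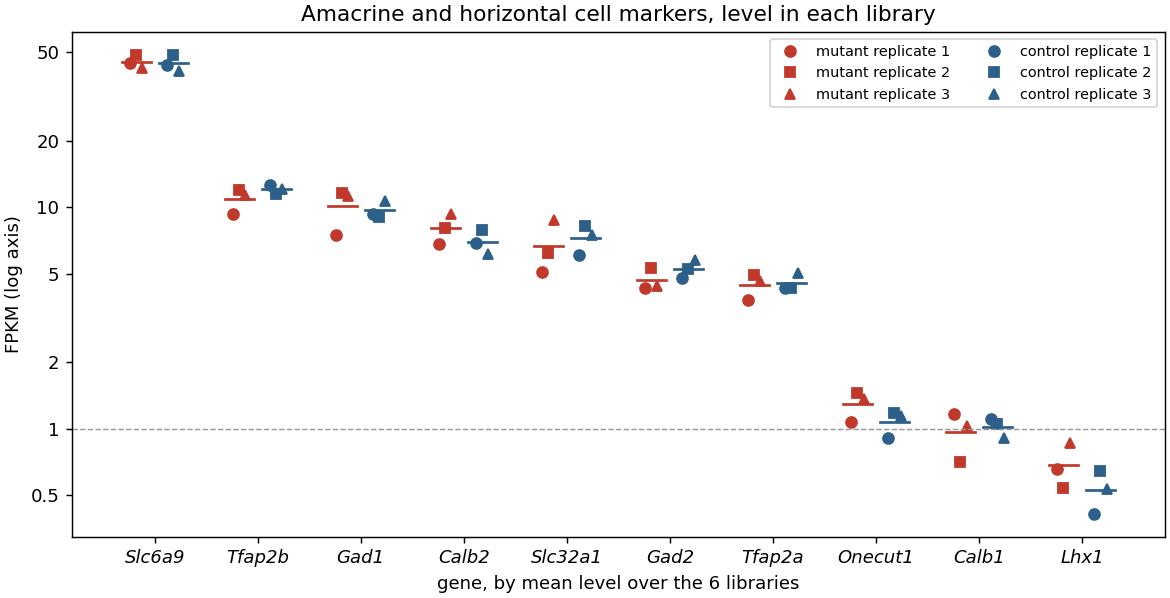
FPKM on a log axis for each of the 10 genes, ordered by mean level, with mutant libraries in red and control libraries in blue, a marker shape per replicate number and a bar at each group mean. The dashed line is 1 FPKM. Slc6a9 sits between 41.2 and 48.6 FPKM, and Lhx1 is under the line in all libraries.

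Among the GABA genes, Gad1, which encodes the larger decarboxylase, measured 7.51, 11.6 and 11.2 FPKM in mutant replicates 1, 2 and 3, against 9.36, 9.04 and 10.7 FPKM in control replicates 1, 2 and 3. Mutant replicate 1 was the lowest library, and the other mutants were the highest. The mean was 10.1 ± 2.27 FPKM in mutants and 9.69 ± 0.874 FPKM in controls (SD, n = 3 each). Gad2, which encodes the smaller decarboxylase found mostly at nerve terminals, measured 4.33, 5.31 and 4.39 FPKM in mutants, against 4.80, 5.25 and 5.77 FPKM in controls. Mutant replicates 1 and 3 lay below all controls, while mutant replicate 2 lay among them. Slc32a1 measured 5.11, 6.19 and 8.77 FPKM in mutants, against 6.10, 8.26 and 7.48 FPKM in controls, so that mutants held both the lowest and the highest library. The ratio of Gad1 to Gad2 was 2.16 ± 0.413 in mutants and 1.84 ± 0.114 in controls (SD, n = 3 each), and ranged from 1.72 to 2.56 over the libraries. The transporter gene Slc6a9 stood at 4.83 to 8.80 times the level of Slc32a1.

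Tfap2a, which acts in the specification of amacrine and horizontal cells, measured 3.81, 4.94 and 4.62 FPKM in mutant replicates 1, 2 and 3, against 4.32, 4.33 and 5.05 FPKM in control replicates 1, 2 and 3. Tfap2b, its paralog with an overlapping role, measured 9.32, 11.9 and 11.3 FPKM in mutants, against 12.5, 11.5 and 12.1 FPKM in controls. For both genes mutant replicate 1 was the lowest library, and the other mutants lay within or close to the control range. The ratio of Tfap2b to Tfap2a was 2.44 ± 0.0208 in mutants and 2.65 ± 0.256 in controls (SD, n = 3 each).

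Of the calcium-binding proteins, Calb2, which encodes calretinin, a marker of amacrine and some ganglion cells, measured 6.80, 8.03 and 9.35 FPKM in mutant replicates 1, 2 and 3, against 6.91, 7.91 and 6.15 FPKM in control replicates 1, 2 and 3. Mutant replicates 2 and 3 lay above all controls, and mutant replicate 1 among them. Calb1, which encodes calbindin, a marker of horizontal cells and of some amacrine cells, measured 1.16, 0.706 and 1.03 FPKM in mutants, against 1.11, 1.05 and 0.903 FPKM in controls. Its lowest and highest libraries were both mutants.

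The horizontal cell factors were near the limit of what these libraries resolve. Onecut1, a cut-homeodomain factor, measured 1.07, 1.44 and 1.36 FPKM in mutant replicates 1, 2 and 3, against 0.906, 1.18 and 1.14 FPKM in control replicates 1, 2 and 3. The groups overlapped through mutant replicate 1. Lhx1, a LIM homeodomain factor that positions horizontal cells, measured 0.656, 0.537 and 0.863 FPKM in mutants, against 0.412, 0.646 and 0.534 FPKM in controls, and 0 libraries reached 1 FPKM. Behind each Lhx1 value lay 35 to 66 reads, behind each Onecut1 value 41 to 82, and behind each Calb1 value 63 to 98. Counting alone would give a coefficient of variation of 15.3% for Lhx1, 13.4% for Onecut1 and 11.6% for Calb1, where 25.2%, 16.5% and 16.6% were measured. For Gad1, with 511 to 1170 reads, counting would give 3.51% and 15.7% was measured, and for Slc32a1, with 302 to 684 reads, 4.50% and 20.2%. The median coefficient of variation was 15.4% over the 10 genes and 12.1% over all genes tested.

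Among the 45 ratios between 2 of the 10 genes, mutant and control values did not overlap for 6, or 13.3%. The share over ratios of other genes was not computed, so this share has no reference. The share given above for single genes is not one. Each ratio set the gene named earlier in the opening list over the one named later. The denominator therefore follows from that order, and inverting a ratio would reverse its direction. Formed in this way, each of the 6 was lower in mutants. Onecut1 was the denominator of 4 of them, under Gad2, Slc32a1, Tfap2a and Tfap2b. The ratio of Tfap2b to Onecut1 was 8.73, 8.26 and 8.34 in mutant replicates 1, 2 and 3, against 13.8, 9.72 and 10.6 in control replicates 1, 2 and 3. The remaining ratios were Gad2 over Calb2 and Slc32a1 over Lhx1. Onecut1 and Lhx1, the denominators of most of the 6, rest on only 41 to 82 and 35 to 66 reads per library. Some of the 6 ratios separated narrowly. Gad2 over Calb2 reached 0.661 in mutants, against 0.664 in the lowest control. Slc32a1 over Onecut1 reached 6.44 in mutants, against 6.54 in the lowest control. The ratios share genes and libraries, were singled out after their values were seen, and carry no test.

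The test of genotype was run with limma on log2(FPKM + 1) over the 13622 genes that reached 1 FPKM in 3 or more libraries. Of the 10 genes, 9 passed this filter and Lhx1 did not. The adjusted p was 1 for each of the 9, and 0 were called at 0.05, where 0% of all genes tested were called. At an unadjusted p under 0.05 there were also 0 of the 9, where 1.21% of all genes tested were. Limma voom on the recovered reads called 0 genes as well, with 106 at an unadjusted p under 0.05 beside 165 in the FPKM fit.

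On the log2(FPKM + 1) scale Calb2 had the largest difference of the 9 genes, mutant minus control, at 0.18 with a standard error of 0.143 and a 95% confidence interval from -0.15 to 0.51. Gad2 was at -0.15 with an interval from -0.44 to 0.15, and Tfap2b at -0.14 with an interval from -0.41 to 0.12. Onecut1 was at 0.14 with an interval from -0.20 to 0.48. Its difference exceeded that of Calb2 in limma voom on recovered reads, 0.31 beside 0.24, and at a pseudocount of 0.1, 0.24 beside 0.20. Without mutant replicate 3 the Calb2 difference was 0.08, without control replicate 3 it was 0.10, and without mutant replicate 1 it was 0.28. The widest interval belonged to Slc32a1, at -0.13 and from -0.56 to 0.31. Differences closer to 0 were those of Calb1 at -0.05, Gad1 at 0.04, Tfap2a at -0.03 and Slc6a9 at 0.02. Over the 9 intervals the bounds ran from 0.676-fold to 1.42-fold on the scale of FPKM + 1, which understates changes of low genes such as Calb1 and Onecut1. For Lhx1, under the filter, the difference in mean log2 value was 0.14 with no test.

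**Figure D2:**
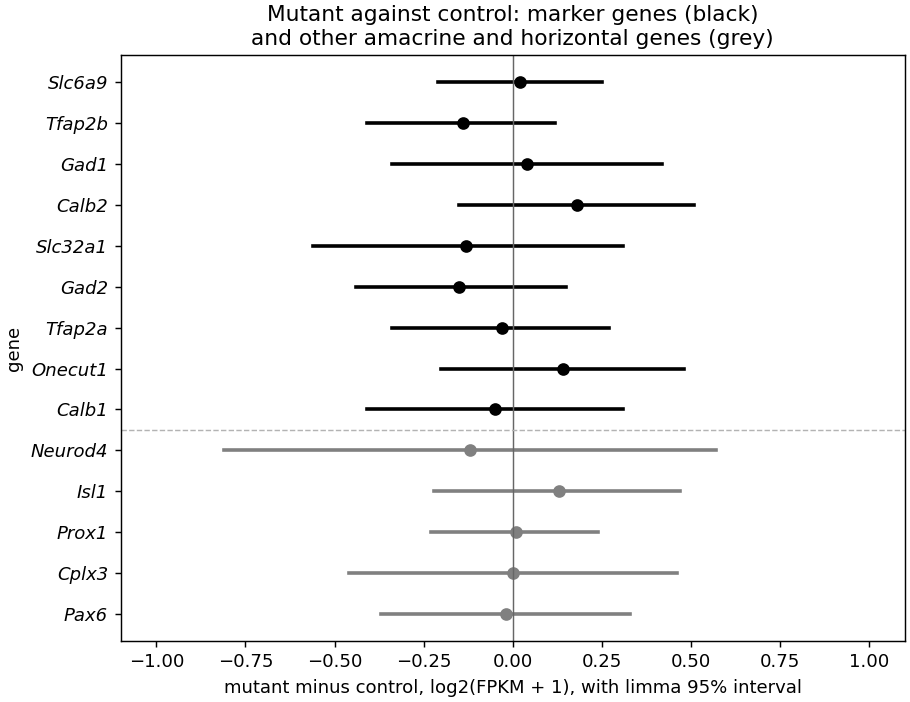
Mutant minus control difference in log2(FPKM + 1), with limma 95% confidence intervals, for the 9 marker genes tested (black) and 5 abundant other amacrine and horizontal genes (grey). Every interval spans 0, and the Calb2 point at 0.18 is the farthest right.

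Mutant replicate 1 was the lowest of the 6 libraries for 5 of the 10 genes, namely Gad1, Gad2, Slc32a1, Tfap2a and Tfap2b, where it was the lowest for 19.4% of all genes tested. This grouping was seen in the values and carries no test. Deviations of that library from the mean of each gene were -0.35 for Gad1, -0.16 for Gad2, -0.37 for Slc32a1, -0.19 for Tfap2a and -0.26 for Tfap2b on the log2(FPKM + 1) scale. Slc6a9 was at 0.00 in the same library, and Calb1 was at its highest there, at 0.12. In mutant replicate 1 microglia markers, 8 genes, averaged 1.63, against 2.08 to 2.53 in the other libraries, and rod markers were at their highest, 8.46. The fewest recovered reads, 21376877, and the fewest genes at 1 FPKM or more, 13332, were also in mutant replicate 1. The part of these cell types and of depth in the marker levels was not tested. Without mutant replicate 1 the log2 difference of Gad1 was 0.22, that of Slc32a1 0.03 and that of Tfap2b -0.04, still with 0 of the 9 genes called.

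**Figure D3:**
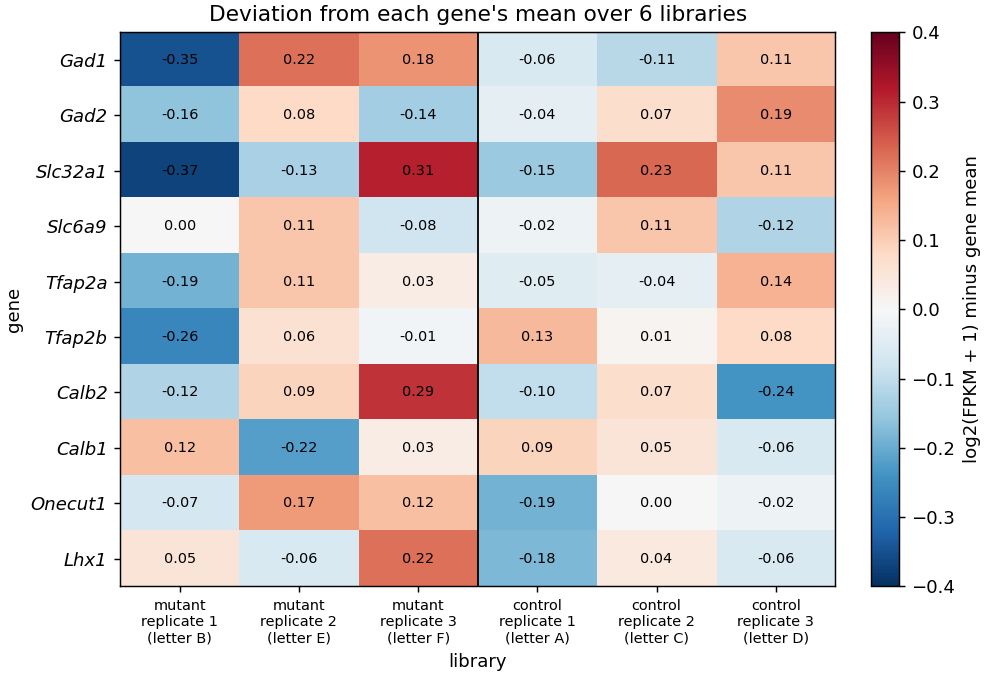
Deviation of log2(FPKM + 1) from the mean of each gene over the 6 libraries, genes in rows and libraries in columns, mutants left of the line and controls right of it, with the letter of the library in the labels. The GABA and AP-2 genes are at -0.16 to -0.37 in mutant replicate 1, and Slc6a9 is within 0.12 of its mean throughout.

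The labels letter the libraries without saying what the letters stand for: B for mutant replicate 1 and A and C for control replicates 1 and 2, against E and F for mutant replicates 2 and 3 and D for control replicate 3. The values of 3 of the 10 genes separated fully by letter, where 35.1% of all genes tested did. Gad1 averaged 11.2 FPKM in D to F and 8.64 FPKM in A to C, Tfap2a 4.87 and 4.15 FPKM, and Calb1 0.879 and 1.11 FPKM. Endothelial markers stood at 5.43 to 6.34 in D to F and at 5.18 to 5.33 in A to C, and rod markers at 7.76 to 8.13 and 8.21 to 8.46, and their part was not tested. D to F holds a single control and A to C a single mutant, so neither set has replicates of both genotypes. With the set as a block, limma gave log2 differences of -0.09 for Gad1, -0.11 for Tfap2a and 0.01 for Calb1, and called 0 genes.

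Of 56 further amacrine and horizontal genes listed, 55 were in the table and 37 passed the filter. Of these 37, 17 had a positive and 20 a negative log2 difference, with a median of -0.003, and 0 passed the limma test, adjusted or at an unadjusted p under 0.05. Mutant replicate 1 was the lowest library for 12 of the 37, or 32.4%. Of the 18 further genes under the filter, mutant and control values did not overlap for 2, Vip and Onecut3, both higher in mutants, where 5.84% of all genes under the filter and above 0 in a library did not. Neurod4, a proneural factor used by amacrine and other retinal precursors, was the most abundant, at 138, 100.3 and 73.6 FPKM in mutant replicates 1, 2 and 3, against 142, 128 and 72.1 FPKM in control replicates 1, 2 and 3. It was lowest in control replicate 3 and mutant replicate 3. Isl1, a LIM homeodomain factor of starburst amacrine, bipolar and ganglion cells, averaged 70.2 ± 5.27 FPKM in mutants and 64.8 ± 12.4 FPKM in controls (SD, n = 3 each). Prox1, a homeodomain factor of horizontal cells and of AII amacrine cells, averaged 57.2 ± 3.88 and 57.0 ± 4.91 FPKM in the mutant and control groups. Prox1 and Isl1 are also used outside these cells, Prox1 in lymphatic endothelium among others.

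Cplx3, a complexin of ribbon synapses and glycinergic amacrine cells, averaged 43.2 ± 9.67 FPKM in mutants and 43.3 ± 9.28 FPKM in controls (SD, n = 3 each). Pax6, the eye-field factor that amacrine and horizontal cells retain, measured 21.6, 31.4 and 31.8 FPKM in mutant replicates 1, 2 and 3, against 27.4, 27.2 and 30.2 FPKM in control replicates 1, 2 and 3. Pax6 was lowest in mutant replicate 1, as were Gad1, Gad2, Slc32a1, Tfap2a and Tfap2b. Neurod4, Isl1, Prox1 and Cplx3 were instead lowest in control replicate 3. Limma log2 differences of these 5 genes ran from -0.12 for Neurod4 to 0.13 for Isl1.

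**Figure D4:**
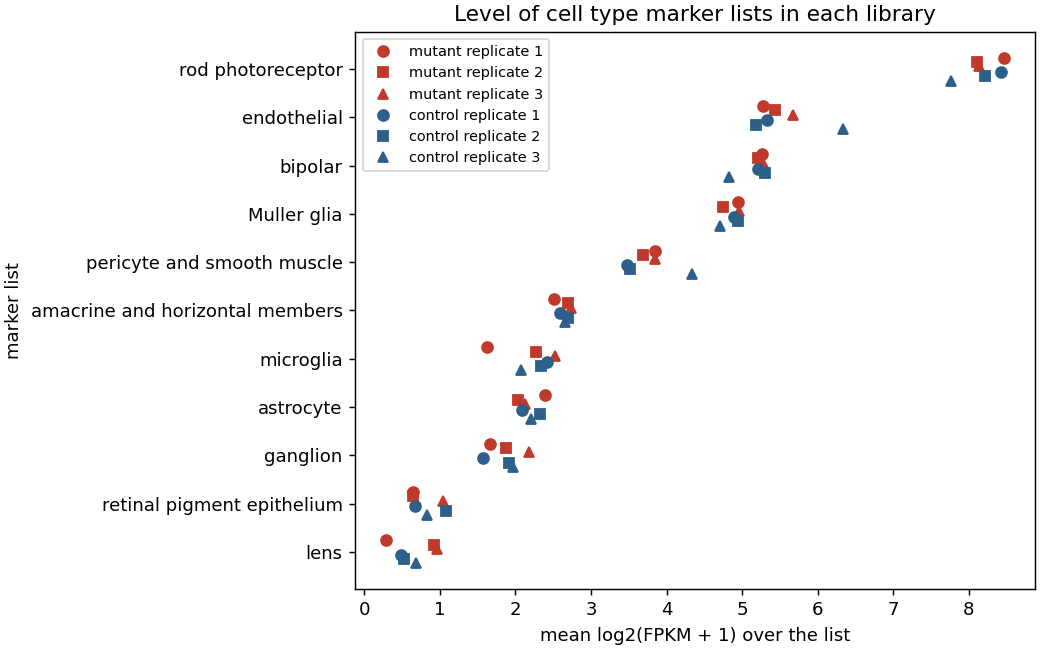
Mean log2(FPKM + 1) of each cell type marker list, lists down the page by level and libraries as points, mutants in red above controls in blue. The amacrine and horizontal list lies at 2.51 to 2.74 in mutants and 2.59 to 2.69 in controls, between the pericyte and the microglia lists.

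The 10 marker genes averaged 2.51 to 2.74 in mutants and 2.59 to 2.69 in controls on the log2(FPKM + 1) scale, a narrower range than those of the endothelial, rod and microglia lists. Bipolar markers, 8 genes, averaged 5.21 to 5.28 in mutants and 4.82 to 5.30 in controls. Ganglion cell markers, also 8, averaged 1.66 to 2.18 in mutants and 1.57 to 1.97 in controls. Muller glia markers, 8 genes, averaged 4.74 to 4.96 in mutants and 4.71 to 4.94 in controls, a range about as narrow as that of the 10 marker genes. Pigment epithelium markers averaged 0.64 to 1.04 in mutants and 0.67 to 1.08 in controls. Lens markers averaged 0.29 to 0.96 in mutants and 0.49 to 0.68 in controls. Krt14 of the cornea or conjunctiva list and Hba-a1 and Hbb-bs of the erythroid list were listed at 0 in all libraries. The erythroid list also holds Alas2, and the sum of that list was 0.617 to 2.06 FPKM in mutants and 0.742 to 1.8 FPKM in controls.

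Some of the 10 genes share exon sequence with neighbours in the GENCODE M21 models on GRCm38. The TruSeq RNA v2 kit named in the labels does not mark strand, so reads in such overlaps cannot be told apart. Slc6a9, a plus-strand gene on chromosome 4 (117834506 to 117875198), shares 1429 exon bases with Ccdc24, a coiled-coil protein gene on the other strand that measured 19.0 ± 2.37 FPKM in mutants and 18.1 ± 0.215 FPKM in controls (SD, n = 3 each). Onecut1, a plus-strand gene on chromosome 9 (74861921 to 74891781), shares 2171 exon bases with the noncoding gene Gm20649. The length behind its FPKM, recovered from the FPKM steps, was 1823 bases, against 4113 exon bases in these models, and that of Slc6a9 was 3272 against 5141. The values of Onecut1 and Slc6a9 therefore rest on other, shorter models, and whether the shared bases entered them was not tested. For Slc32a1 and Tfap2b the recovered length was longer than the exon bases, 2805 against 2797 and 6502 against 6338. It was shorter for the other genes. Slc32a1, a plus-strand gene on chromosome 2 (158610767 to 158615748), shares 697 exon bases with the antisense gene Gm14205. Tfap2a, a minus-strand gene on chromosome 13 (40715302 to 40738376), shares 380 with the antisense gene Gm26688, which measured 0.0819 to 0.182 FPKM. The models give 0 exon bases shared with another gene for Gad1, Gad2, Tfap2b, Calb1, Calb2 and Lhx1.

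The genes whose profile over the 6 libraries lay closest to the mean centred profile of the 9 tested markers were Psmd13, Vps51, Selo, Scamp2 and Slc24a3. Likeness was the root-mean-square distance between centred log2(FPKM + 1) profiles, and it was 0.0236 for Psmd13, a proteasome subunit gene, and 0.0288 for Slc24a3, a sodium-calcium exchanger gene, with a median of 0.164 over 10096 candidates. The markers themselves lay 0.0695 to 0.176 from their own mean profile. Psmd13 measured 31.1, 35.1 and 37.3 FPKM in mutant replicates 1, 2 and 3, against 32.7, 35.0 and 35.2 FPKM in control replicates 1, 2 and 3, lowest in mutant replicate 1.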

How the data were processed

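The 6 RNA sequencing libraries, 3 mutant and 3 control, were grouped by their labelled genotype. The authors deposited FPKM values, a column per library, with 24421 gene symbols. DESeq2, Cufflinks 2.2.1, STAR 2.5.0b and bedtools 2.17.0 were used on build mm10, per the submitters' processing notes. The annotation, the strand setting and the role of each tool were not given in the sources used here. Of the rows, 4518 were at 0 in all libraries and 27 symbols had become dates, so Sept4 was not found.

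Low FPKM values were whole multiples of 1 read, with depth taken from miRNA genes. Reads came out whole, within 0.01 reads at low counts, for 16489 of the 16491 rows above 0 in every library. To look for duplicate libraries, libraries of a group were compared with counting error alone, and none were counted as 1 sample (chi-square per degree of freedom 14.1 to 70.2).

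Mutant and control values of log2(FPKM + 1) were compared by limma (version 3.58.1, R version 4.3.3) with a prior that follows the mean level. The test was two-sided, with Benjamini-Hochberg adjustment at 0.05 over the 13622 genes that reached 1 FPKM in 3 or more libraries. The fit was tested on simulated data. Alternatives were a pseudocount of 0.1, looser and stricter filters, median-of-ratios and quantile normalization, blocks for replicate number and letter, limma voom on recovered reads, and the omission of each library. Coefficients of variation from counting alone are the root mean of 1 over the reads and cover counting error only.

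The marker genes and lists were chosen with earlier results of these data known. Genes named besides the 10 were the 6 most abundant of the further list, of which 1 is not reported here, Anxa3, the 5 closest profiles among genes with a mean of at least 5 FPKM, and overlapping neighbours. Other names were chosen after their values were seen. Positions came from GENCODE M21 and promoters from RefSeq on GRCm38.p6, matched by symbol. The motifs reported are those of the AP-2, Onecut and LIM homeodomain factors among the markers. Some other common promoter motifs were also searched in an exploratory pass, with the matches in view before this choice, and are not reported. Python 3.11.15, numpy 2.4.6, pandas 2.3.3 and matplotlib 3.10.9 were used.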

Additional observations from a re-analysis of the deposited data

How the results depend on the processing

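The count of genes called was 0 under each of the 14 alternatives run, and the smallest adjusted p of a tested marker gene was 0.731, with the letter block. The median log2 difference over the 10 genes moved by less than the spread between replicates in each. Of 124 values of single marker genes under alternatives, 11 had the other sign, while Gad2, Tfap2b, Calb2 and Onecut1 kept theirs throughout. The 124 include values under the other filters and the replicate block, which cannot change the difference of a gene. Their sign was thus fixed in advance and says nothing of stability. With the letter block Gad1 was at -0.09 and Calb1 at 0.01. Over single omitted libraries the difference ran from -0.06 to 0.22 for Gad1, from -0.31 to 0.03 for Slc32a1, from -0.03 to 0.08 for Slc6a9, from -0.10 to 0.06 for Tfap2a from -0.12 to 0.05 for Calb1, from 0.08 to 0.28 for Calb2, from 0.08 to 0.21 for Onecut1, from -0.22 to -0.09 for Gad2 and from -0.21 to -0.04 for Tfap2b. The cause was not tested. At a pseudocount of 0.1 the untested Lhx1 difference was 0.31.

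The replicate block cannot move a difference, since mutants and controls carry the same replicate numbers, and it can change only the p-values. With it 0 genes were called, with 296 at an unadjusted p under 0.05. With the letter block that count was 927, and over single omitted libraries it ran from 122 to 679, highest without mutant replicate 1. Deviations from the group means correlated at 0.249, -0.151 and 0.391 between libraries of the same number, so the numbers were not taken to pair them. Calb1, Onecut1 and Lhx1 rest on at most 98 reads per library, which limits what their differences can show.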

Other observations

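Genes of several amacrine subtypes stayed under the filter, at 0 to 1.13 FPKM in the 18 further genes that did not pass it. Vip, a neuropeptide gene of an amacrine subtype, measured 0.342, 0.568 and 0.471 FPKM in mutant replicates 1, 2 and 3, against 0.212, 0.162 and 0.228 FPKM in control replicates 1, 2 and 3, on 6 to 27 reads per library. Onecut3, a paralog of Onecut1, measured 0.354, 0.274 and 0.376 FPKM in mutants, against 0.166, 0.247 and 0.222 FPKM in controls, on 24 to 49 reads. In the limma fit with no filter on low values their log2 differences were 0.28 and 0.14, with unadjusted p-values of 0.00445 and 0.0265 and an adjusted p of 1 for both. The genes named here were chosen after their values were seen. Chat, which makes acetylcholine in starburst amacrine cells, averaged 0.767 ± 0.469 FPKM in mutants and 0.751 ± 0.129 FPKM in controls (SD, n = 3 each). Th, the tyrosine hydroxylase of dopaminergic amacrine cells, averaged 0.381 ± 0.162 FPKM in mutants and 0.218 ± 0.178 FPKM in controls. Slc17a8, the vesicular glutamate transporter of a glycinergic amacrine subtype, averaged 0.719 ± 0.231 and 0.724 ± 0.151 FPKM in the mutant and control groups. Gja10, a gap junction gene of horizontal cells, averaged 0.406 ± 0.289 FPKM in mutants and 0.290 ± 0.0666 FPKM in controls. Ptf1a, a factor of amacrine and horizontal precursors, lay at 0 to 0.128 FPKM over the libraries.

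Within the further list, Tfap2c, another AP-2 gene, averaged 3.28 ± 1.20 FPKM in mutants and 4.01 ± 0.193 FPKM in controls (SD, n = 3 each) and was lowest in mutant replicate 1, like Tfap2a and Tfap2b. Pcp4, a calmodulin-binding protein gene, had the largest log2 difference of the tested members of that list, 0.44 with a standard error of 0.234, and did not pass the limma test.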
